A study of Mus musculus with 2 samples.

Results

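The 7 miRNA genes Mir322, Mir503, Mir351, Mir542, Mir450-2, Mir450-1 and Mir450b form one cluster on the minus strand of the mouse X chromosome. They were found by their Ensembl gene identifiers among the 1973 miRNA genes of the count tables, and all 7 had a row in both libraries. The libraries came from limbs of B6NCrl embryos (Mus musculus) at embryonic day 15.5, healthy and with both sexes pooled. Replicate 1 was a pool of 78 embryos and replicate 2 a pool of 62 embryos, so no value belongs to a single animal. Small RNA below 30 nt was sequenced from total RNA, and the series had 1 group with no other tissue, stage or treatment. Levels are therefore described, and the only comparison of samples is between the replicates.

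A miRNA is cut from a hairpin precursor, and either arm of the hairpin (5p or 3p) can be loaded into an Argonaute protein, which it guides to messenger RNAs. Pairing by bases 2 to 8 of the mature miRNA, the seed, largely decides which messenger RNAs are repressed. The miRNAs of this cluster are known from differentiating muscle, where miR-322 (named miR-424 in human) and miR-503 promote exit of myoblasts from the cell cycle. miR-322 carries the seed of the miR-15 and miR-16 family, whose targets include cyclins, and miR-351 the seed of the miR-125 family, the vertebrate relatives of lin-4 of Caenorhabditis elegans.

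The mature sequences show which members could act on the same targets. RefSeq on GRCm38.p6 gave mature sequences for all 7 genes, 14 arms with 13 distinct sequences of 21 to 24 bases. They are printed 5′ to 3′ with the seed in capitals, in the order of the genes along the strand.
mmu-miR-322-5p: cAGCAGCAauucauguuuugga
mmu-miR-322-3p: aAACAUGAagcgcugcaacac
mmu-miR-503-5p: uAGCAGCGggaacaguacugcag
mmu-miR-503-3p: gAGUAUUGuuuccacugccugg
mmu-miR-351-5p: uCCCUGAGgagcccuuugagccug
mmu-miR-351-3p: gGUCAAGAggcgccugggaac
mmu-miR-542-5p: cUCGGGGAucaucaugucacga
mmu-miR-542-3p: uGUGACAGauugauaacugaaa
mmu-miR-450a-5p: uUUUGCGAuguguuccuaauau
mmu-miR-450a-2-3p: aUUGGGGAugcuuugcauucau
mmu-miR-450a-1-3p: aUUGGGAAcauuuugcauaaau
mmu-miR-450b-5p: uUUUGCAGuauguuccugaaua
mmu-miR-450b-3p: aUUGGGAAcauuuugcaugcau

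The 14 arms carried 12 distinct seeds. miR-322-5p and miR-503-5p, whose genes lie next to each other, had the same bases 2 to 7 and differed at the last seed base (A8G, counted from 1 at the 5′ end, miR-322-5p first). Over 22 bases they were identical at 11. miR-450a-5p, cut from both Mir450-1 and Mir450-2, differed from miR-450b-5p within the seed by G7A and A8G. The 3p arms of Mir450-1 and Mir450b shared their seed and 20 of 22 bases, while the 3p arm of Mir450-2 differed from that of Mir450-1 in the seed by A7G. The deposited counts are per gene and do not separate the 5p from the 3p arm, so no value below belongs to a single arm.

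Mir450-1 and Mir450-2 could not be measured like the others. Their hairpins share an unbroken stretch of 25 bases that holds the whole of miR-450a-5p, in capitals below (GRCm38.p6, minus strand, chrX:53048299-53048367 for Mir450-2 and chrX:53048154-53048244 for Mir450-1).
Mir450-2: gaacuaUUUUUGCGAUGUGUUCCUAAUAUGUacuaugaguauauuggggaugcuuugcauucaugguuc
Mir450-1: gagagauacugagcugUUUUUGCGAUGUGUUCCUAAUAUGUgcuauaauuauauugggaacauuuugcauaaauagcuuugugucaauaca
Multiply aligned reads entered no gene, and they were 29.4% of replicate 1 and 29.7% of replicate 2. A read that lies wholly in this stretch aligns to both genes, so their counts leave out such reads and can be too low. The other 5 members shared no stretch of 20 bases with any other annotated miRNA gene.

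On mm10 the cluster spans 6353 bases of chromosome X, from 53047997 to 53054349, and none of the 7 genes overlaps another gene annotated on the same strand (GENCODE M21). By their identifiers in the count tables the genes are Mir322 (ENSMUSG00000065418.1, 53054255 to 53054349), Mir503 (ENSMUSG00000076122.1, 53053984 to 53054054) and Mir351 (ENSMUSG00000065503.1, 53053255 to 53053353). Further along lie Mir542 (ENSMUSG00000076140.1, 53049403 to 53049487), Mir450-2 (ENSMUSG00000076399.1, 53048299 to 53048367), Mir450-1 (ENSMUSG00000065486.1, 53048154 to 53048244) and Mir450b (ENSMUSG00000076050.1, 53047997 to 53048078). In the direction of the strand, Mir322 comes first and is followed after 200 bases by Mir503 and after a further 630 bases by Mir351. A gap of 3767 bases, in which the lincRNA gene Gm28730 is annotated, separates Mir351 from Mir542. Mir450-2 starts 1035 bases after Mir542, and Mir450-1 and Mir450b follow after 54 and 75 bases. The processed transcript C430049B03Rik ends 696 bases before Mir322 on the same strand. The hairpins in RefSeq, available for 6 of the 7 genes, ranged from 69 bases (Mir450-2) to 95 bases (Mir322). Those of the 3 Mir450 genes had a GC content of 30.5% to 36.2%, against a median of 51.7% and quartiles of 45.0% and 57.7% over 1005 mouse hairpins. Mir322, Mir503 and Mir542 had 51.6%, 54.9% and 51.8%.

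The limb libraries held 4263630 sense counts over miRNA genes in replicate 1 and 5151214 in replicate 2. Levels are sense counts per 1000000 of that total (CPM), and values carry the SD over n = 2 replicates. A read below 30 nt covers a mature arm in one piece, so CPM were not divided by length; whether different sequences were captured equally was not tested. The tissue label was set against marker genes. The cartilage genes Mir140 and Mir455 summed to 47612 and 45564 CPM, and the Hox cluster genes Mir196b and Mir10b to 44161 and 53783 CPM. Highest of the marker lists in both replicates were the epidermal genes Mir203 and Mir205, which summed to 83441 and 94033 CPM. The 5 neuronal genes with a row summed to 2.11 and 1.36 CPM, with Mir124a-1, Mir124a-2, Mir124a-3 and Mir9-2 at 0 in both. All 5 share 20-base stretches with other copies, and multiply aligned reads enter no gene, so these low values do not measure neuronal content. Markers of skeletal muscle differed between the pools. The 8 listed muscle genes with a row summed to 11557 CPM in replicate 1 and 4988 CPM in replicate 2, with 5 detected, and Mir206, which shares no such stretch, made up most of both sums. Mir133a-1 was at 0 in both, but it shares stretches with Mir133a-2 and Mir133b, so this 0 is not a level of miR-133a. In bulk limb RNA, more cells of a type and more RNA per cell cannot be told apart.

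All 7 members were detected, meaning at least 10 sense counts in both replicates, and together they held 5.86% ± 0.184 of the sense counts. Replicate 1 gave 5.99% and replicate 2 gave 5.73%, with Wilson 95% intervals of 5.97 to 6.02 and 5.71 to 5.75. On the X chromosome most counted miRNA came from the cluster. The 120 X-linked miRNA genes, of which 38 were detected, held 8.71% ± 0.287 of the sense counts, and the 7 members made up 67.3% and 67.4% of that in the replicates. Mir322 alone made up 47.9% and 51.2% of the X-linked counts. Among the other X-linked genes, Mirlet7f-2, Mir92-2, Mir19b-2 and Mir374b share stretches with other miRNA genes. Reads common to such copies enter no gene and are missing from the X-linked total. The shares of the cluster and of Mir322 in that total can therefore be too high. Reads common to Mir450-1 and Mir450-2 are missing too, which acts the other way for the cluster.

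Mir322, which restrains the cell cycle of myoblasts, was the most abundant member. It had 181953 counts in replicate 1 and 224400 in replicate 2, or 42676 and 43563 CPM, a mean of 43119 ± 627 CPM. It ranked eighth of all miRNA genes, between Mir140 of chondrocytes (43941 and 42385 CPM) and Mir196b of the Hox clusters (35894 and 45632 CPM). The replicate values of these 3 genes overlapped, so their order is not settled by these data. Ranks here and below are of gene counts. Reads that align to several copies enter no gene, so miRNAs with several copies can rank too low. Mir322 made up 71.2% of the cluster's counts in replicate 1 and 76.0% in replicate 2 (Wilson 95% intervals of 71.0 to 71.4 and of 75.8 to 76.1). Mir351 made up 22.4% and 18.6%, Mir503 3.32% and 2.74%, and Mir542 2.40% and 2.15%.

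Mir351 came second among the members. It had 57191 and 54793 counts, or 13414 and 10637 CPM, with a mean of 12025 ± 1963 CPM, and ranked 23 of all miRNA genes. Mir503, the cell cycle regulator 200 bases from Mir322, had 8477 and 8090 counts, or 1988 and 1571 CPM (mean 1779 ± 295 CPM, rank 73). The gene directly beside Mir322 was far below it, and Mir351, the next gene along, lay between them.

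Mir542, whose 3p arm is known to target the apoptosis inhibitor survivin, had 6139 and 6362 counts, or 1440 and 1235 CPM (mean 1337 ± 145 CPM, rank 88). Mir450b had 1498 and 1399 counts, or 351 and 272 CPM (mean 311 ± 56.4 CPM, rank 142). For Mir450-1 there were 216 and 214 counts, 50.7 and 41.5 CPM (46.1 ± 6.45 CPM). Mir450-2 was lowest with 104 and 114 counts, 24.4 and 22.1 CPM (23.3 ± 1.60 CPM). For the last of these, counting error alone allowed 20.1 to 29.6 CPM in replicate 1 and 18.4 to 26.6 CPM in replicate 2 (Wilson 95% intervals).

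**Figure D1:**
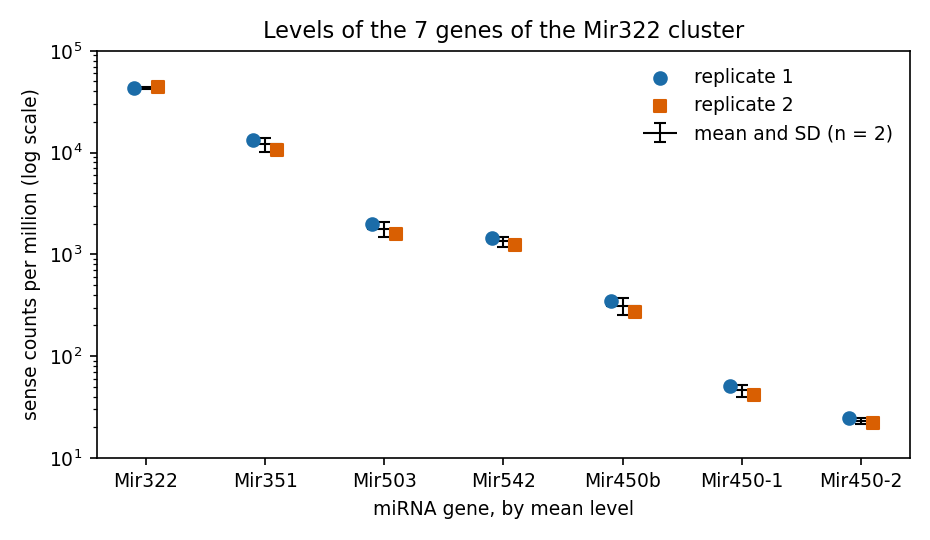
Sense CPM (log scale) of the 7 genes in each replicate, with the mean and SD over n = 2, ordered by mean level. The order is the same in both replicates, and no gene's replicate values overlap those of the next.

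The levels spanned 1750-fold from Mir322 to Mir450-2 in replicate 1 and 1968-fold in replicate 2. Reads common to Mir450-1 and Mir450-2 are missing from these values, and the lowest member other than this pair was Mir450b. No pair of neighbours in the order of levels overlapped between the replicates. The nearest were Mir503 and Mir542, where the lower Mir503 value (1571 CPM, replicate 2) was above the higher Mir542 value (1440 CPM, replicate 1). Level did not follow position along the strand. Of the first 3 genes, Mir503 in the middle was the lowest, and of the last 3, Mir450b at the far end was above Mir450-1, which was above Mir450-2.

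**Figure D2:**
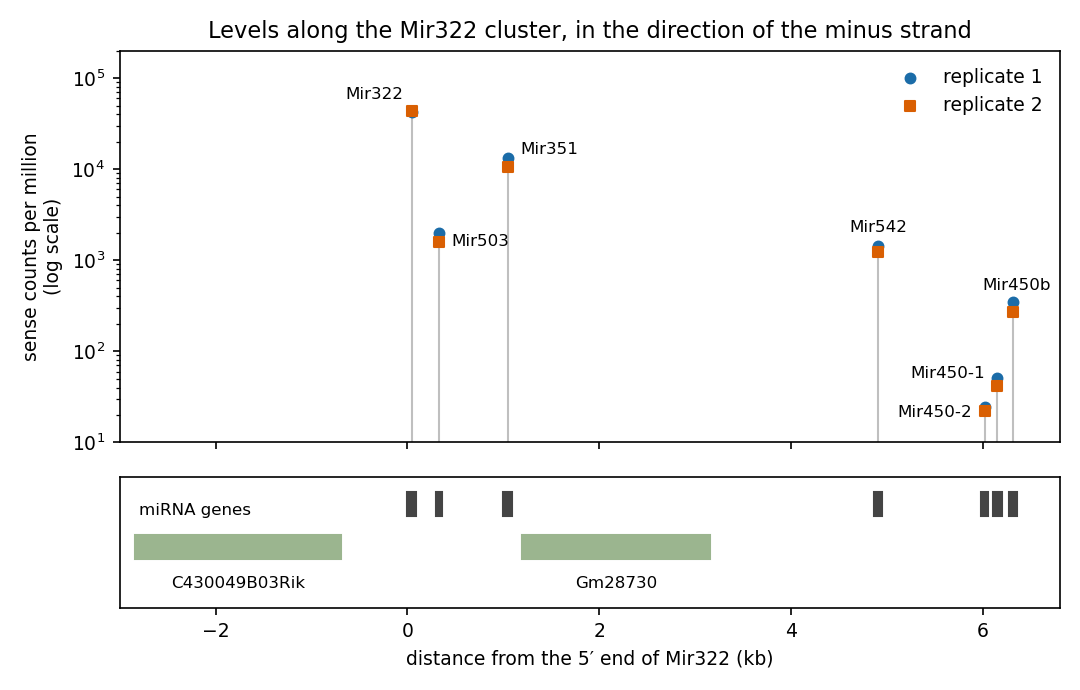
Levels (sense CPM, log scale, both replicates) against the distance from the 5′ end of Mir322 in kb, with the annotated genes of the minus strand to scale beneath. Mir322 and Mir351 stand above 10000 CPM, while the 3 genes at the far end stand at 351 CPM or less.

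Ratios between members within a library do not depend on how the libraries are scaled. Mir351 exceeded Mir503 by factors whose intervals overlapped, 6.75-fold in replicate 1 (exact 95% interval 6.59 to 6.90) and 6.77-fold in replicate 2 (6.62 to 6.93). Mir450b exceeded Mir450-1 by 6.94-fold (6.01 to 8.04) and 6.54-fold (5.66 to 7.58), again with overlapping intervals. Mir450-1 exceeded Mir450-2 by 2.08-fold and 1.88-fold, with intervals of 1.64 to 2.65 and 1.49 to 2.38. Reads common to Mir450-1 and Mir450-2 are in neither count. The ratio of Mir450b to Mir450-1 can therefore be too high, and that of Mir450-1 to Mir450-2 leaves these reads out.

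The ratio of Mir322 to Mir351 differed between the replicates. It exceeded Mir351 by 3.18-fold in replicate 1 (exact 95% interval 3.15 to 3.21) and by 4.10-fold in replicate 2 (4.06 to 4.13), and these intervals do not overlap. The ratio of Mir503 to Mir542 was 1.38 (1.34 to 1.43) in replicate 1 and 1.27 (1.23 to 1.31) in replicate 2, and that of Mir542 to Mir450b 4.10 (3.87 to 4.34) and 4.55 (4.29 to 4.82). Reads without molecular identifiers are not independent molecules, so all these intervals cover counting error only.

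**Figure D3:**
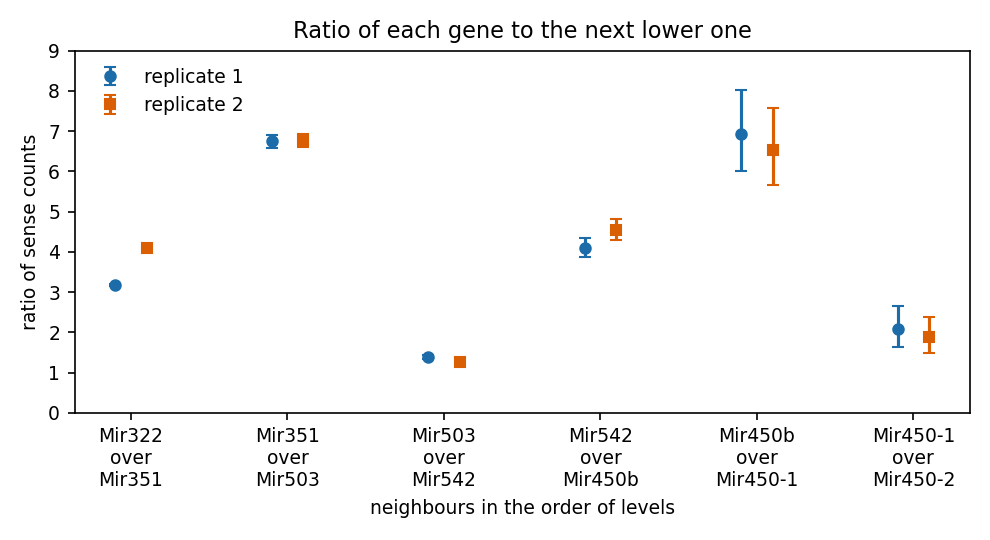
Ratio of the sense counts of each gene to those of the next lower one, in each replicate, with exact 95% counting intervals. The ratio of Mir351 to Mir503 is 6.75 and 6.77, while that of Mir322 to Mir351 is 3.18 in replicate 1 and 4.10 in replicate 2. Reads common to Mir450-1 and Mir450-2 are missing from the ratios that involve them.

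Between the pools, 4 of the 7 members were lower in replicate 2 past the threshold, while Mir322 differed by 1.02-fold. Each detected gene was tested with an exact two-sided binomial test on its counts given the library totals, with Benjamini-Hochberg adjustment over 340 detected genes. Of the 7 members, 5 passed the adjusted threshold of 0.05, against 50.9% of all detected genes. Lower in replicate 2 and past the threshold were 4 of 7 members, against 25.6% of all detected genes, and higher and past it 1 of 7, against 25.3%. The lower ones were Mir351, Mir503, Mir542 and Mir450b. The test compares 2 libraries against counting noise, and at these depths it calls small differences.

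Mir351 had a log2 ratio of replicate 2 over replicate 1 of -0.33 (exact 95% interval -0.35 to -0.32), and Mir503 of -0.34 (-0.38 to -0.30). Mir542 had -0.22 (-0.27 to -0.17), and Mir450b had -0.37 (-0.48 to -0.27). These 4 were 1.17-fold to 1.29-fold higher in replicate 1. Mir450-1 had -0.29 (-0.57 to -0.01, adjusted p = 0.0786 in the exact binomial test) and Mir450-2 had -0.14 (-0.54 to 0.26, adjusted p = 0.630 in the exact binomial test), so neither passed.

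Mir322 had a log2 ratio of 0.03 (exact 95% interval 0.02 to 0.04), which passed with an adjusted p of 2.51e-10 in the exact binomial test. Its size was 1.02-fold, and the call was lost with DESeq2's size factors, where the ratio was 0.01 (adjusted p = 0.0826, exact binomial test). The other 6 members summed to 1.73% of the sense counts in replicate 1 and 1.38% in replicate 2, a log2 ratio of -0.33 (exact 95% interval -0.34 to -0.31).

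The median log2 ratio of the 7 members was -0.29, beside 0.02 over the 340 detected genes. A lower level in replicate 2 was found for 6 of 7 members and for 163 of the 340 (47.9%). All 7 members were within 1.5-fold, as were 309 of the 340 genes (90.9%). The members lie in one cluster and are not independent of each other. The middle 95% of the 340 log2 ratios ran from -0.88 to 0.62, a range that holds all 7 members. One of the genes lower in replicate 2 was the muscle marker Mir206, with 11050 CPM in replicate 1 and 4787 CPM in replicate 2. Its log2 ratio of -1.21 lay outside that range. The part of muscle content in the lower values of the 6 members was not tested.

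**Figure D4:**
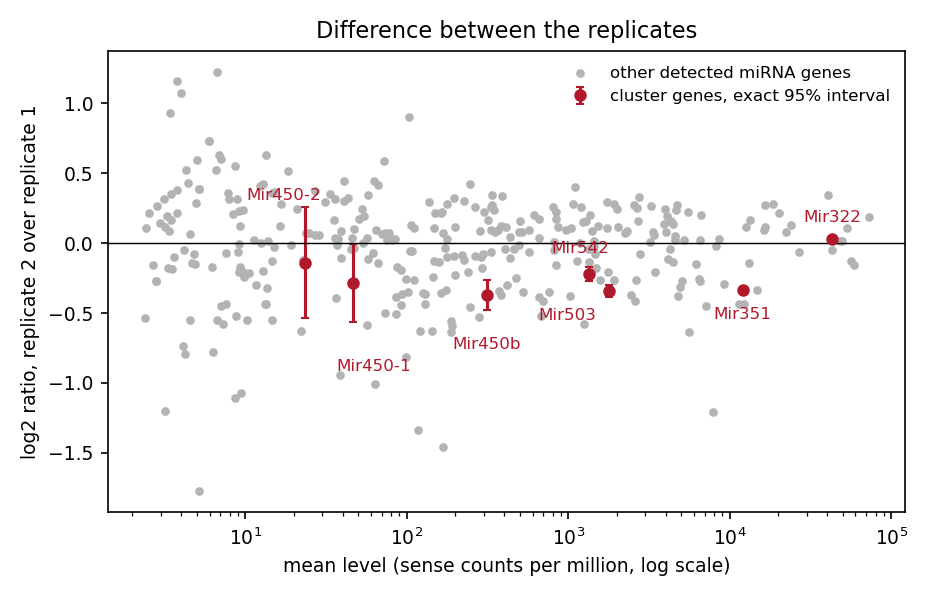
Log2 ratio of replicate 2 over replicate 1 against mean level (sense CPM, log scale) for 340 detected miRNA genes, with the 7 cluster genes in red and their exact 95% counting intervals. Mir322 lies at 0.03 and the other 6 between -0.37 and -0.14.

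Among genes with the seed of miR-322-5p, Mir322 was the most counted. The seed was found in 11 mouse genes of the RefSeq table, of which 10 had a row in the count tables and 6 were detected. The mature sequences of the detected ones are set beside miR-322-5p to show how far they agree beyond the seed.
mmu-miR-322-5p: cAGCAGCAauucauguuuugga
mmu-miR-15a-5p: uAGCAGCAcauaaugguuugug
mmu-miR-15b-5p: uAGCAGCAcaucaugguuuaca
mmu-miR-16-5p: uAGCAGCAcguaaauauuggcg
mmu-miR-195a-5p: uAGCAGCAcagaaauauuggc

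From base 9 onwards, miR-322-5p was identical to miR-15b-5p at 9 of 14 positions, to miR-15a-5p at 8 of 14, to miR-16-5p at 5 of 14 and to miR-195a-5p at 4 of 13. Mir15a and Mir16-1 lie on chromosome 14, Mir15b and Mir16-2 on chromosome 3, and Mir195a on chromosome 11. Mir322 had 43119 ± 627 CPM, and the other genes with this seed summed to 5841 ± 598 CPM. Mir15a, whose family represses cyclins and Bcl2, had 2433 and 3058 CPM in the replicates. Mir16-1 had 1471 and 1598 CPM, Mir15b 621 and 698 CPM, Mir195a 480 and 508 CPM and Mir16-2 414 and 402 CPM. Mir322 thus took 88.7% of the counts of genes with this seed in replicate 1 and 87.4% in replicate 2. The mean was 88.1% ± 0.924, with Wilson 95% intervals of 88.6 to 88.9 and of 87.3 to 87.6 in the replicates. Both arms are counted, so this is a share of gene counts and not of reads that carry the seed.

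This share can be too high. miR-16-5p is cut from both Mir16-1 and Mir16-2, so reads that align to both loci enter neither count. Mir497, with the same seed (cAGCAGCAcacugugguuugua), had no row, but the row of Mir497b on the opposite strand held 2663 and 3395 antisense counts. With these added, the share of Mir322 was 86.9% ± 0.926. With bases 2 to 7 as the criterion, which brings in Mir503, it was 85.0% ± 0.322, and Mir322 and Mir503 together took 88.5% ± 0.968.

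Of the 6 detected genes with the miR-322-5p seed, 4 passed the adjusted threshold between the replicates, against 50.9% of all detected genes. Higher in replicate 2 and past the threshold were 4 of the 6, against 25.3% of all detected genes. These 4 include Mir322, whose call was lost with DESeq2's size factors. The others were Mir15a, Mir15b and Mir16-1, with log2 ratios of 0.33, 0.17 and 0.12 and exact binomial adjusted p-values of 5.08e-73, 1.34e-05 and 2.28e-06. Mir195a had 0.08 (adjusted p = 0.0980, exact binomial test) and Mir16-2 had -0.04 (adjusted p = 0.498, exact binomial test).

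Mir351 was likewise the most counted gene with its seed. The seed of miR-351-5p was found in 6 genes of the RefSeq table, all with a row, of which 4 were detected. Beyond the seed the sequences differ, with 2 identical positions of 16 between miR-351-5p and miR-125a-5p from base 9 onwards.
mmu-miR-351-5p: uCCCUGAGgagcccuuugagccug
mmu-miR-125a-5p: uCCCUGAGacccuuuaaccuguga
mmu-miR-125b-5p: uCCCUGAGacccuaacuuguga

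Mir351 had 12025 ± 1963 CPM, against 6632 ± 103 CPM for the other genes with this seed. Mir125a on chromosome 17 had 5134 and 5221 CPM, Mir125b-1 on chromosome 9 had 929 and 992 CPM and Mir125b-2 on chromosome 16 had 496 and 492 CPM. Mir351 took 67.2% of the counts of genes with this seed in replicate 1 and 61.3% in replicate 2 (Wilson 95% intervals of 66.8 to 67.5 and of 61.0 to 61.7). The same limits hold here. Both arms are counted, and miR-125b-5p is cut from both Mir125b-1 and Mir125b-2, so reads common to them enter neither count. Of the other 3 detected genes, Mir125b-1 passed the adjusted threshold between the replicates, against 50.9% of all detected genes, at 0.09 on the log2 scale (exact binomial test, adjusted p = 0.00482), while Mir125a (0.02) and Mir125b-2 (-0.01) did not pass.

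**Figure D5:**
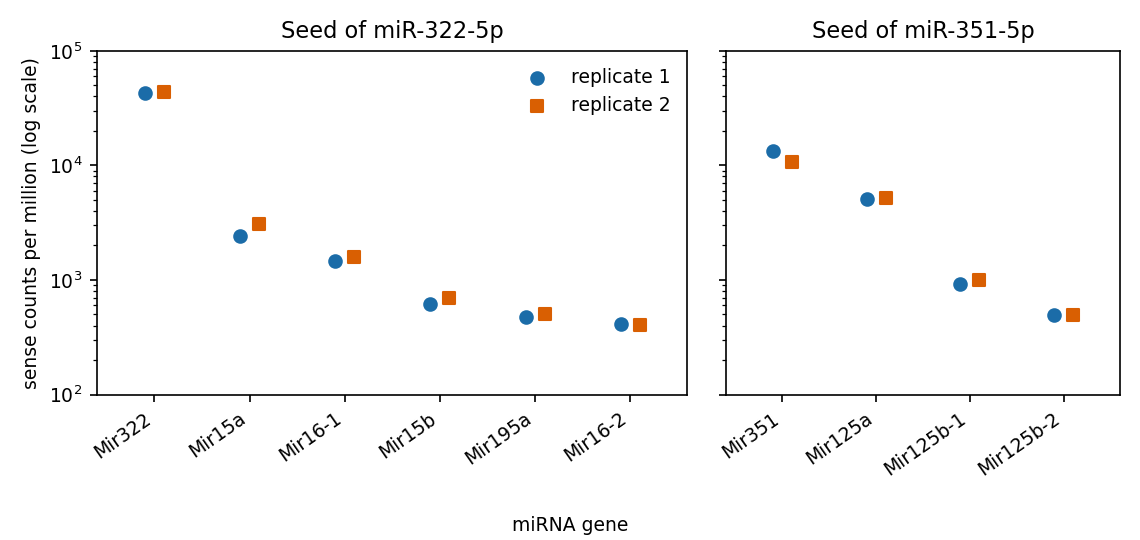
Sense CPM (log scale) in each replicate of the detected genes with the seed of miR-322-5p (left) and of miR-351-5p (right), with the cluster gene first. Mir322 averages 43119 CPM and the next gene, Mir15a, 2745 CPM, while Mir351 averages 12025 CPM and Mir125a 5177 CPM.

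The other seeds of the cluster had little company among counted genes. Mir6966, which shares the seed of miR-542-5p, had 0 and 3 counts, and Mir6352, which shares that of the 3p arms of Mir450-1 and Mir450b, had 0 in both. The remaining seeds of the members were found in no gene outside the cluster. All counts of the 7 members were on the sense strand. The same held for 221 (86.0%) of the 257 genes whose strands summed to 100 or more counts in both libraries. For Mir322 a count of 0 allows an antisense share of up to 0.00165% in replicate 1 and 0.00134% in replicate 2, and for Mir450-2 of up to 2.88% and 2.63%.

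At the other ranks, the genes directly above and below each member by mean CPM had replicate values that overlapped those of the member. Mir351 stood between Mir127 (12306 ± 2611 CPM) and Mir487b (11460 ± 2441 CPM), both of the imprinted Dlk1-Dio3 region, and Mir503 between Mir154 (1910 ± 247 CPM) and Mir139 (1766 ± 181 CPM). Mir542 stood between Mir148a (1338 ± 29.1 CPM) and Mir467d (1288 ± 99.7 CPM), and Mir450b between Mir329 (313 ± 58.8 CPM) and Mir669l (301 ± 32.7 CPM). Next to Mir450-1 were Mir30c-1 (46.8 ± 0.831 CPM) and Mir26a-2 (45.8 ± 0.799 CPM), and next to Mir450-2 were Mir1198 (23.8 ± 0.877 CPM) and Mir702 (22.7 ± 1.38 CPM). Mir487b, Mir467d, Mir669l, Mir30c-1 and Mir26a-2 share stretches of 20 bases with other miRNA genes, so reads that align to several copies are missing from their values. With 2 libraries of 1 tissue, no likeness of pattern across conditions can be measured.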

How the data were processed

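The authors' deposited tables hold raw counts of reads for each miRNA gene on mm10 with annotation M4, per the deposited README. The aligner, counter and trimming are not given in the sources used here. The columns have no header; from the values the first was read as the sum of both strands, the next as sense and the last as antisense. The 4 summary lines, among them reads with several alignments, entered neither the sense total nor the total of both strands. They are part only of all reads of the libraries, the base of the percentages of multiply aligned reads. Positions and symbols came from GENCODE M21, whose GRCm38 assembly is that of mm10 (1894 of 1973 identifiers matched; the 79 others held 2 sense counts), and sequences from RefSeq on GRCm38.p6.

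CPM are sense counts over the sense total. The replicate test is the exact conditional binomial test (scipy 1.17.1, Python 3.11.15), with Benjamini-Hochberg adjustment over genes with at least 10 counts in both replicates. It was run on simulated counts with set changes and counting noise only, which is what the test assumes. That run does not show how the test behaves where pools vary. With 1 group, edgeR's quasi-likelihood test between groups could not be made; edgeR 4.0.16 (TMM) and DESeq2 1.42.0 gave other scalings. Intervals cover counting error at the 95% level, and replicates are separate pools. The cluster's genes, the marker lists and the genes set beside it were chosen with earlier results of these data known. Named genes are the members, detected genes with the seeds of miR-322-5p and miR-351-5p, and each member's neighbours in rank; others were named after their values were seen.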

Additional observations from a re-analysis of the deposited data

How the results depend on the processing

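The share of the cluster in the counts follows the total it is divided by. It was 5.86% of the sense counts, 5.67% with counts irrespective of strand, 2.75% of all reads of the libraries, and 11.1% without the 10 highest genes outside the cluster. The share of Mir322 in its seed family was 91.7% when only genes that share no 20-base stretch were kept, 85.0% with bases 2 to 7, and 86.9% with the antisense counts at Mir497b. That of Mir351 was 69.7% when only genes that share no such stretch were kept. Keeping only these genes takes others out of the total, so both shares could only rise. Bases 2 to 7 and the counts at Mir497b add to the total, so they could only lower the share of Mir322. The last 2 settings for Mir322 were chosen after seeing the data. With either replicate left out, the cluster share was 5.73% to 5.99%, that of Mir322 87.4% to 88.7% and that of Mir351 61.3% to 67.2%. Count minimums leave a log2 ratio unchanged. The other scalings and strands shift the ratios of all members by the same amount, so their directions were largely fixed. Of 42 member log2 ratios under other scalings, strands and count minimums, 41 kept their direction and their side of the threshold. The exception was Mir322 with DESeq2's size factors (0.01, adjusted p = 0.0826, exact binomial test; 1.56e-15 to 2.73e-05 in the other 5 settings). Of 48 such ratios of the detected seed relatives, recomputed as a choice made after seeing the data, 47 kept both. Mir125a passed with counts irrespective of strand (0.03, adjusted p = 0.0315, exact binomial test). No paired analysis was possible because the series has 1 group. Depth limits Mir450-1 and Mir450-2, with about 100 to 200 counts each.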

Other observations

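Other X-linked miRNA clusters of the limb were lower in total than the Mir322 cluster, which summed to 59944 and 57340 CPM in replicates 1 and 2. Mir98 and Mirlet7f-2, of the let-7 family, summed to 9401 and 8607 CPM. The 5 detected genes of the cluster led by Mir532, with Mir188, Mir501, Mir500 and Mir362, summed to 6156 and 4977 CPM, a log2 ratio of -0.31. All 5 were lower in replicate 2, as were 163 of the 340 detected genes (47.9%). The cluster of Mir92-2, Mir106a, Mir363, Mir20b, Mir18b and the undetected Mir19b-2 is paralogous to miR-17-92 and annotated on the same strand as the Mir322 cluster. With Mir19b-2 included it summed to 176 and 226 CPM, a log2 ratio of 0.36. All 5 detected genes were higher in replicate 2, as were 177 of the 340. Genes of one cluster are not independent of each other. Mir374b with Mir421 summed to 632 and 671 CPM, Mir224 with Mir452 to 504 and 503 CPM, and Mir221 with Mir222 to 292 and 317 CPM. Several of these genes belong to families with other copies, so reads common to the copies are in none of these sums. The sums are values of the 2 libraries, and their differences were not tested.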
